A study of Mus musculus with 25 samples.

Results

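Sciatic nerves of wild-type mice of 2 inbred strains, C57BL/6J and FVB/NRJ, were compared by RNA sequencing. The C57BL/6J mice, named WT-C3, were the wild-type controls of C3 mice, and the FVB/NRJ mice, named WT-C22, were those of C22 mice. Each group had 5 libraries, 1 each from mice aged 3, 5, 7, 9 or 12 weeks, so that 10 of the 25 libraries of the series were compared. C3 and C22 mice carry human PMP22, the gene that is duplicated in Charcot-Marie-Tooth disease type 1A (CMT1A), on C57BL/6J and FVB/NRJ respectively, and in a further group of C3 mice the gene of c-Jun was deleted by a Cre active in Schwann cells. WT-C3 and WT-C22 mice were labelled wild type and given no treatment. Both sexes were pooled in each library, and there was 1 library per strain and age. The 5 ages of a strain therefore served as its replicates (n = 5), and an SD, SE or p-value measures the spread between these libraries, ages included. The strains belong to separate mouse lines, so that strain, line and anything else that differed between the colonies cannot be told apart. Genes on the X and Y chromosomes were left out.

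C57BL/6J is the strain of the mouse reference genome and the usual background of knockout lines, while FVB is widely used for making transgenic mice because of its large pronuclei and litters. Inbred strains differ by single-base variants, deletions, gene duplications and retrogenes, which are processed copies of an mRNA inserted elsewhere in the genome, and a transcript can therefore be missing altogether in 1 strain. Loci known to vary in this way include the major histocompatibility complex (MHC, H2 in the mouse), the Ifi200 genes of interferon-inducible DNA sensors and the Trim5, Trim12 and Trim30 genes, which belong to a family of factors that restrict retroviruses. The nerve itself consists mostly of Schwann cells, which make myelin, with fibroblasts, perineurial and endothelial cells, macrophages and mast cells, and with fat in the surrounding epineurium.

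The WT-C3 libraries had 9001002 to 16264172 fragments counted on genes and the WT-C22 libraries 10196601 to 41376508. Levels are given as CPM, the counts of a gene relative to all counts on genes of the library, scaled by the TMM factors of the libraries compared and not divided by transcript length. Of the genes of the table, 13522 had a log2 CPM over 1 in 7 or more libraries and were tested. The first principal component of their log2 CPM held 51.9% of the variance and separated the strains, with WT-C3 libraries between -34.2 and -27.6 and WT-C22 libraries between 26.6 and 35.7. The second held 19.1% and spread the ages of both strains, with the 5-week libraries highest. These 2 libraries also held the most transcripts of skeletal muscle, which are described beside the cell type lists. Human PMP22 was counted 10 to 82 times in WT-C3 libraries and 1 to 83 times in WT-C22 libraries.

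**Figure D1:**
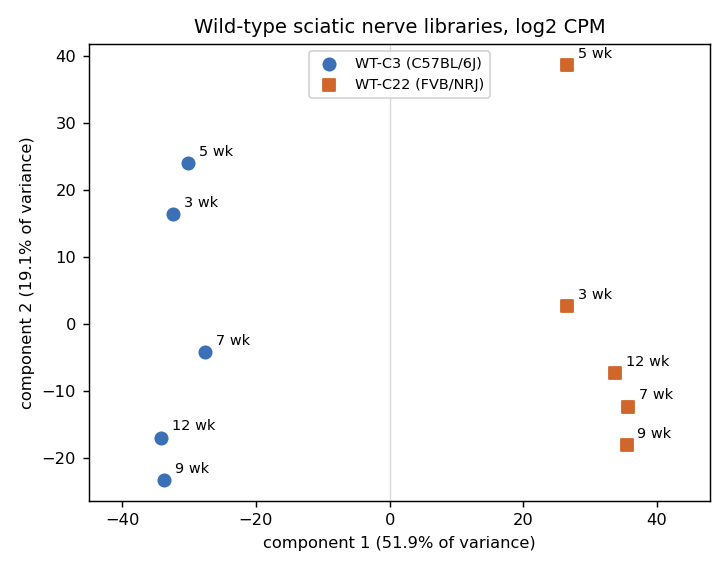
The first 2 principal components of log2 CPM in the 10 wild-type libraries, each point 1 library labelled with its age, WT-C3 as circles and WT-C22 as squares. On component 1 all WT-C3 libraries lie at or below -27.6 and all WT-C22 libraries at or above 26.6, and on component 2 the 5-week library is the highest of each strain.

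The strains differed at 2965 of the 13522 genes (21.9%; edgeR quasi-likelihood test, Benjamini-Hochberg adjusted p under 0.05). In WT-C22, 1371 genes (10.1%) were higher and 1594 (11.8%) lower. Most differences were small, with a median of 1.54-fold over the genes called, and 2143 of them (72.3%) were under 2-fold. At least 2-fold differences were called at 822 genes (6.08%), 374 higher and 448 lower in WT-C22, and 136 genes differed at least 8-fold, 66 higher and 70 lower. Over all tested genes the median log2 difference was 0.00 after TMM scaling, which sets the middle of the genes near 0. The levels of the 5 WT-C3 and 5 WT-C22 libraries did not overlap at 2319 genes (17.1%), of which 2159 were among those called. Protein-coding genes were called less often (2599 of 12431, 20.9%) than long non-coding RNAs (198 of 668, 29.6%, with 142 lower in WT-C22) and processed pseudogenes (75 of 135, 55.6%, with 50 higher), and the difference between these shares was not tested. Across the autosomes, 18.2% (chromosome 16) to 25.8% (chromosome 17) of the tested genes were called. The larger number of genes lower than higher in WT-C22 (1594 against 1371) depended on the filter. This filter asked for 7 of all 25 libraries, of which 15 are C57BL/6J-based and 10 FVB, so that the strains were not treated alike. With no filter on low counts 1863 genes were higher and 1870 lower. With filterByExpr in its place 1547 were higher and 1779 lower.

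Nnt, which encodes the mitochondrial transhydrogenase that makes NADPH, carries a deletion of several exons in C57BL/6J and is the best known variant of that strain. It could not tell these strains apart here. At chr13:119470859-119566380 (GRCm39, minus strand), it had 4 to 9 counts in WT-C3 libraries, or 0.450 ± 0.116 CPM (SD, n = 5), and 6 to 17 counts in WT-C22 libraries, or 0.436 ± 0.189 CPM (n = 5). Over all 25 libraries its counts ran from 0, in the C3 library of 9 weeks with only 2140142 fragments counted on genes, to 22. It was therefore below the filter in every group and was not tested. Its neighbours were counted well, with Paip1 at 65.2 ± 1.03 CPM in WT-C3 and 58.8 ± 7.43 CPM in WT-C22 and Tmem267 at 6.70 ± 1.61 and 9.50 ± 0.805 CPM. The reason for the low Nnt counts in both strains was not tested.

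Other genes did separate the libraries. Ifi202b, Trim12a and Pttg1 are on the list of known strain variants described below, while Hal and Tpsab1 are not. CPM in this paragraph are relative to all counts on genes of the library, without TMM factors. They differ slightly from the values given elsewhere. Ifi202b, an Ifi200 gene, had no count in any of the 15 libraries of WT-C3 mice and of C3 mice with or without c-Jun. In the 10 libraries of WT-C22 and C22 mice it had 5.97 to 15.5 CPM. The labels give no strain for the C3 mice without c-Jun, which were placed with C57BL/6J by their C3 genotype. Trim12a lay between 14.2 and 26.8 CPM in the 15 libraries and between 0 and 0.0822 CPM in the 10. Pttg1, which encodes securin, the inhibitor of chromatid separation, lay between 15.3 and 28.3 CPM in the 15 and between 0.632 and 2.82 CPM in the 10. Hal, the enzyme that breaks down histidine, and Tpsab1, a tryptase of mast cells, were at most 0.459 and 1.26 CPM in the 15 and at least 4.28 and 5.59 CPM in the 10. The 5 genes were chosen after their values were seen, for separating these libraries, so that they are no independent check of the labels.

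Of 33 genes listed for known strain variants, 20 were tested, and 4 were higher and 7 lower in WT-C22 (55% called, against 21.9% of all tested genes), with a median log2 difference of -0.29 against 0.00 over all tested genes. Besides Ifi202b, Trim12a, Trim30d and Pttg1, this list includes Hjurp, the chaperone that loads the centromeric histone. Hjurp was 103, 107, 95.5, 84.2 and 97.8 CPM in WT-C3, from the youngest to the oldest library, and 19.8, 15.0, 13.4, 14.4 and 12.8 CPM in WT-C22, a log2 difference of -2.69 (SE 0.12, edgeR adjusted p = 3.42e-08). Alad, the second enzyme of heme synthesis, which is duplicated in some strains, was 45.6 ± 4.68 CPM in WT-C3 and 105 ± 9.94 CPM in WT-C22 (log2 difference 1.20, SE 0.09, edgeR adjusted p = 2.19e-06). Wdfy1, an endosomal protein, was 24.9 ± 3.79 and 61.7 ± 3.79 CPM (1.30, SE 0.10, edgeR adjusted p = 2.31e-06). For these 3 genes no library of 1 strain reached the range of the other. B2m, the light chain of MHC class I, was 0.64 lower in WT-C22 on the log2 scale (SE 0.14, edgeR adjusted p = 0.00571). The calls of Glo1 (log2 difference -0.26), Pisd (0.34) and Trim30a (-0.39) were lost in 3, 9 and 6 of the 10 fits that left out 1 library. Their adjusted p in edgeR was then at most 0.0624 for Glo1 (without WT-C22 of 7 weeks), 0.0884 for Pisd and 0.0867 for Trim30a (both without WT-C3 of 12 weeks). The other 9 tested members were not called, among them Xaf1, Ide, Naip5, Mx2, Ahr, Ly6a, Naip2 and Ly6c1. Below the filter, Gbp2b, an interferon-inducible GTPase, was 0 to 0.293 CPM in WT-C3 and 1.43 to 2.76 CPM in WT-C22.

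**Figure D2:**
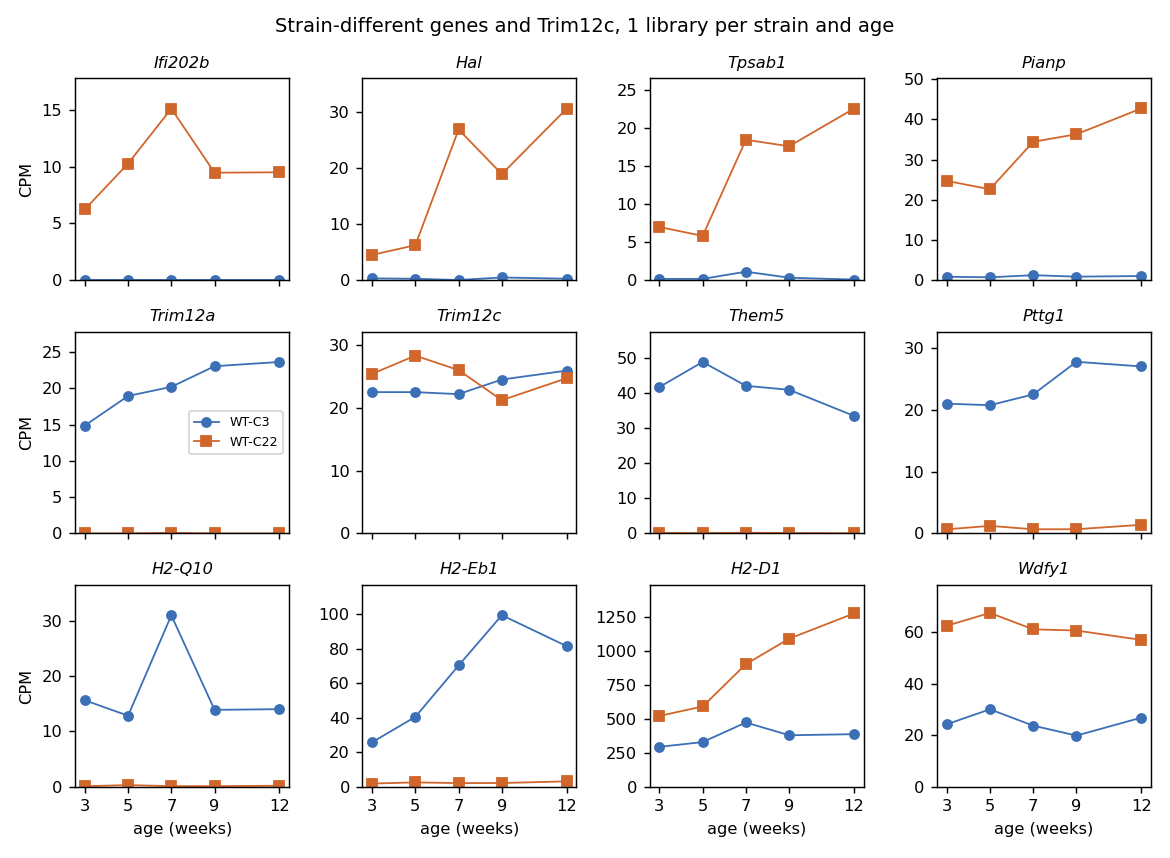
CPM of 12 genes against age in weeks, 1 point per library, WT-C3 as circles and WT-C22 as squares, with an axis from 0 in each panel. The strains overlap for Trim12c and for none of the other 11 genes, and the difference is present at each of the 5 ages.

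The largest difference in the direction of WT-C3 was that of Trim12a (ENSMUSG00000066258, chr7:103945967-103964797, minus strand). It was 14.9, 19.0, 20.2, 23.1 and 23.6 CPM in WT-C3 from the youngest to the oldest library, while WT-C22 had 2 counts in its 7-week library and none in the other four (log2 difference -9.86, SE 0.39, edgeR adjusted p = 1.45e-08). Over the groups these were 1339 counts against 2, a ratio of 1327 after scaling for depth (95% interval 367 to 10968, counting error only). Trim5 had 404 counts against 1, a ratio of 801 (143 to 31702). Trim30d was 8.20 ± 1.64 CPM in WT-C3 and 0.0480 ± 0.0307 CPM in WT-C22, and Trim34a 12.6 ± 1.77 and 2.02 ± 0.112 CPM. Trim34b went the other way, from 0.134 ± 0.109 CPM in WT-C3 to 3.38 ± 0.514 CPM in WT-C22 (log2 difference 4.44, SE 0.35, edgeR adjusted p = 2.81e-06). Trim12c was 22.5, 22.5, 22.2, 24.5 and 25.9 CPM in WT-C3 and 25.4, 28.3, 26.0, 21.2 and 24.7 CPM in WT-C22, and these ranges overlapped (log2 difference 0.09, SE 0.09, edgeR adjusted p = 0.497). All of these genes lie within chr7:103893663-104157107, and 6 of the 7 tested there (85.7%, against 21.9% of all tested genes) were called, 1 higher and 5 lower in WT-C22. Trim34a, Trim34b and Trim12c were named after their values were seen. Trim12a, Trim5 and Trim12c are near copies of each other, and the sum of their levels was 49.7 ± 6.04 CPM in WT-C3 and 25.2 ± 2.58 CPM in WT-C22.

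The largest difference in the direction of WT-C22 was that of Ifi202b (ENSMUSG00000026535, chr1:173790134-173810414, minus strand), an Ifi200 protein without a PYRIN domain that is known from the lupus-prone NZB mouse. It was 6.25, 10.3, 15.1, 9.48 and 9.52 CPM in WT-C22 from the youngest to the oldest library. No WT-C3 library held a count, so that a ratio of counts has no value. The fold difference fitted by edgeR was 1592, which is an estimate and no lower bound. Mndal, another Ifi200 gene, was 19.5 ± 4.00 CPM in WT-C3 and 0.482 ± 0.255 CPM in WT-C22 (log2 difference -5.23, SE 0.28, edgeR adjusted p = 1.11e-07). Of the 10 Ifi200 genes tested at chr1:173178445-173859456, 2 were higher and 4 lower in WT-C22 (60% called, against 21.9% of all tested genes).

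Of 51 tested genes of the interferon response 24 were lower in WT-C22 and 2 higher (median log2 difference -0.39), while the other 25 were not called. Of all tested genes 11.8% were lower and 10.1% higher. The strains did not overlap for 25 of the 51, against 17.1% of all tested genes. Ifit1, which binds viral RNA, was 23.0, 15.1, 17.1, 18.6 and 20.8 CPM in WT-C3 and 5.44, 5.19, 6.68, 4.70 and 5.91 CPM in WT-C22 (log2 difference -1.76, SE 0.14, edgeR adjusted p = 2.38e-06). Every WT-C22 library was below every WT-C3 library. The ubiquitin-like modifier Isg15 was 9.93 ± 1.27 and 3.21 ± 0.360 CPM (-1.63, SE 0.13, edgeR adjusted p = 3.70e-06). Ifit3, a partner of Ifit1, was 46.4 ± 9.95 and 16.3 ± 1.21 CPM (-1.51, SE 0.13, edgeR adjusted p = 4.95e-06). Together the 51 genes summed to 1098 to 1297 CPM in WT-C3 and 823 to 1059 CPM in WT-C22. The 2 members that were higher in WT-C22 were Ifi202b and Gbp9, a guanylate-binding protein named after its value was seen (0.61, SE 0.12, edgeR adjusted p = 0.00373). Leaving out any 1 library left 22 to 27 members lower, and counts thinned to the smallest library left 19. Of the 26 members called, 18 had no near copy (defined below), while 16.1% of all genes called had one. The reads of both strains were aligned to the genome of C57BL/6J, and the part of this in the calls was not tested.

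MHC genes differed in both directions. The stretch from H2-K1 to Mog (chr17:34214987-37334350) held 105 tested genes, of which 35 (33.3%, against 21.9% of all tested genes) were called, 14 higher and 21 lower in WT-C22. Of its 20 genes named H2-, 13 (65%) were called, each at least 2-fold, and of its other 85 genes 22 (25.9%). The 2 windows of 1 Mb with the most genes called at least 2-fold lie here, from chr17:35000001 to chr17:37000000. They held 10 such genes of 44 tested and 8 of 25, where 6.08% of all tested genes were called so. The window before them held 6 of 47, and the one from chr8:70000001 to chr8:71000000 held 6 of 37. These are ranks by number, and windows with fewer tested genes could have a larger share. An example is 4 of 7 from chr7:103000001 to chr7:104000000.

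In class I, which presents peptides to cytotoxic T cells, 21 genes were tested, with 4 higher and 5 lower, or 42.9% called against 21.9% of all tested genes (median log2 difference -0.04). Without the WT-C22 library of 12 weeks 8 were lower and the median was -0.19. H2-Q10, a secreted class I protein, was 15.6, 12.8, 31.0, 13.9 and 14.0 CPM in WT-C3 and 0.11, 0.306, 0.119, 0.113 and 0.192 CPM in WT-C22 (log2 difference -6.76, SE 0.36, edgeR adjusted p = 1.11e-07). No WT-C22 library exceeded 0.306 CPM. H2-T22, a non-classical molecule recognised by some γδ T cells, was 52.0 ± 4.32 and 4.16 ± 1.31 CPM (-3.60, SE 0.18, edgeR adjusted p = 6.80e-08), and its near copy H2-T10 was 4.14 ± 1.22 and 15.4 ± 2.96 CPM (1.91, SE 0.20, edgeR adjusted p = 3.50e-05). H2-T23, which encodes Qa-1, was 61.8 ± 10.6 and 15.0 ± 2.09 CPM (-2.04, SE 0.14, edgeR adjusted p = 6.70e-07). Of the classical genes, both named after their values were seen, H2-D1 was 295 to 474 CPM in WT-C3 and 523 to 1278 CPM in WT-C22 (1.23, SE 0.23, edgeR adjusted p = 0.00261), and H2-K1 was 257 to 388 and 144 to 365 CPM (-0.35, SE 0.21, edgeR adjusted p = 0.273). The ranges of H2-K1 overlapped and those of H2-D1 did not. These genes are highly polymorphic between strains, and the reads of both strains were aligned to the genome of C57BL/6J, so that fewer fragments of a gene and a less similar sequence cannot be told apart from these counts.

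In class II, which presents peptides to helper T cells, 9 genes were tested, with 1 higher and 2 lower, or 33.3% called (median log2 difference -0.32). H2-Eb1, the beta chain of the E molecule, was 25.8, 40.5, 70.3, 99.4 and 81.5 CPM in WT-C3 and 1.87, 2.55, 2.13, 2.18 and 3.15 CPM in WT-C22 (log2 difference -4.73, SE 0.36, edgeR adjusted p = 2.26e-06). All WT-C22 libraries lay far below the lowest WT-C3 library. H2-Ab1, the beta chain of the A molecule, was 67.1 ± 30.3 and 43.6 ± 13.0 CPM and was not called (edgeR adjusted p = 0.195). Of the chains of the peptide exchanger DM, H2-DMb1 was 114 ± 17.5 CPM in WT-C3 and 39.9 ± 4.17 CPM in WT-C22 (-1.52, SE 0.11, edgeR adjusted p = 1.74e-06). Its near copy H2-DMb2 was 0.723 ± 0.492 and 11.4 ± 2.47 CPM (4.06, SE 0.32, edgeR adjusted p = 2.60e-06). The sum of both DM genes was 115 ± 17.6 and 51.3 ± 5.72 CPM.

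Other single genes were nearly missing in 1 strain. Them5, a mitochondrial acyl-CoA thioesterase (ENSMUSG00000028148, chr3:94249400-94254659, plus strand), was 41.7, 48.9, 42.1, 40.9 and 33.5 CPM in WT-C3 and 0.147, 0.102, 0.198, 0.113 and 0.0481 CPM in WT-C22 (log2 difference -8.40, SE 0.21, edgeR adjusted p = 2.58e-10). In the same direction were Fam169a (8.12 ± 4.74 and 0.0428 ± 0.0625 CPM), the olfactory receptor gene model Or5m3b (66.9 ± 20.3 and 0.424 ± 0.141 CPM) and the dynein light chain gene Dynlt1b (5.44 ± 1.20 and 0.0339 ± 0.0471 CPM). Eps8l1, a relative of the actin regulator Eps8, was 31.2 ± 8.58 and 0.438 ± 0.125 CPM, and the zinc finger gene Zfp33b 9.18 ± 1.80 and 0.220 ± 0.137 CPM. The log2 differences of these 5 genes ran from -7.28 to -5.39, with edgeR adjusted p-values of 2.00e-05 for Fam169a and less for the other four. Dynlt1b has 4 near copies, with which it summed to 28.7 ± 2.30 CPM in WT-C3 and 21.9 ± 5.02 CPM in WT-C22.

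Higher in WT-C22 was Pianp, a neural ligand of the receptor PILRα (chr6:124973623-124980064, plus strand), with 0.822, 0.680, 1.21, 0.840 and 0.997 CPM in WT-C3 and 24.7, 22.6, 34.4, 36.3 and 42.7 CPM in WT-C22 (log2 difference 5.16, SE 0.23, edgeR adjusted p = 2.84e-08). Hal was 0.299, 0.227, 0, 0.458 and 0.235 CPM in WT-C3 and 4.48, 6.21, 26.8, 18.9 and 30.6 CPM in WT-C22 (6.06, SE 0.71, edgeR adjusted p = 7.74e-05). Serpina1b, a gene of the protease inhibitor alpha-1 antitrypsin, was 0.0715 ± 0.130 and 12.9 ± 8.55 CPM. For Hal and Serpina1b the lowest WT-C22 libraries were those of 3 and 5 weeks. Gys2, the glycogen synthase of liver, was 0.732 ± 0.313 and 10.4 ± 11.5 CPM, with 30.6 CPM in the WT-C22 library of 12 weeks and at most 8.54 CPM in the others. The cilium gene Cfap54 was 0.406 ± 0.184 and 5.16 ± 0.736 CPM, and Scel, sciellin of the cornified envelope, 0.515 ± 0.347 and 6.10 ± 0.944 CPM.

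Many of the large differences were at genes with a near copy. A near copy was another gene whose main transcript matched 50% or more of the gene's sequence at 95% identity or more in GENCODE vM39. This sequence was the coding sequence for 12432 of the 13522 tested genes and the whole main transcript for the others. Of all 13522 tested genes 9.14% had one, against 16.1% of the genes called, 29.1% of those called at least 2-fold and 49.3% of those called at least 8-fold. Among the 8-fold genes, 44 of the 66 higher in WT-C22 and 23 of the 70 lower had a near copy. A fragment that aligned equally well to both copies was not counted, and 1 base can decide to which copy a fragment goes, so that levels of such genes are uncertain.

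The sequences of 3 pairs show how many bases tell the copies apart, few for Ahcy and Rpl29 and more for Trim12a. Each is a stretch of the transcript in the GRCm39 reference, read 5′ to 3′, with the bases that differ between the copies in capitals. For each pair the stretch of 120 bases within 1 exon that held the most differences was chosen. Ahcy at chr2:154904144-154904263 (minus strand) and Ahcyl at chr16:45974284-45974403 (minus strand) differ at 2 of these 120 bases and at 4 of the 1299 aligned. Rpl29 at chr9:106308346-106308465 (plus strand) and the processed pseudogene Gm13841 at chr5:115939919-115940038 (minus strand) differ at 1 of 120 and 3 of 483. Trim12a at chr7:103956284-103956403 (minus strand) and Trim12c at chr7:103997300-103997419 (minus strand) differ at 11 of 120 and 32 of 892.
Ahcy: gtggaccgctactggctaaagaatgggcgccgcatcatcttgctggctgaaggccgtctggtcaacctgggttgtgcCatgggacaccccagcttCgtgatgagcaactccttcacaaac
Ahcyl: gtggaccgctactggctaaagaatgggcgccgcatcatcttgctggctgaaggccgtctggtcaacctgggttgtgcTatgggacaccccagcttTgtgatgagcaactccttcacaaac
Rpl29: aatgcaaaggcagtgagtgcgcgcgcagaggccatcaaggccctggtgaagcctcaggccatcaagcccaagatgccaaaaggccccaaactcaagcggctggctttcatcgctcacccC
Gm13841: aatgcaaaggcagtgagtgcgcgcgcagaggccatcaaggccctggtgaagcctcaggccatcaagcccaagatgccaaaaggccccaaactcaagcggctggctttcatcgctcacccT
Trim12a: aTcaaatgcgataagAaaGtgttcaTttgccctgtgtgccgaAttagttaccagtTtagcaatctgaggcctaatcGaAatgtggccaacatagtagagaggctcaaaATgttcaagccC
Trim12c: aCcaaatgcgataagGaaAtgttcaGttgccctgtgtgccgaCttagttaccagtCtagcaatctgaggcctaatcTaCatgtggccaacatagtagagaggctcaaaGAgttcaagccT

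Ahcyl is a retrogene of Ahcy, the enzyme that splits S-adenosylhomocysteine. Ahcyl was 6.36, 5.44, 4.61, 3.89 and 1.58 CPM in WT-C3 and 97.3, 95.4, 72.9, 76.0 and 72.3 CPM in WT-C22 (log2 difference 4.26, SE 0.27, edgeR adjusted p = 5.04e-07). Ahcy was 153, 121, 110, 134 and 98.5 CPM in WT-C3 and 78.8, 75.0, 58.3, 58.6 and 59.4 CPM in WT-C22 (-0.90, SE 0.13, edgeR adjusted p = 0.000393). The strains did not overlap for either gene, yet the sum of Ahcy and its copies was 128 ± 22.6 CPM in WT-C3 and 149 ± 22.5 CPM in WT-C22, a log2 ratio of 0.21. The same held for enolase, where Eno1b was 2.27 ± 1.36 and 46.4 ± 9.98 CPM and Eno1 with all its copies summed to 364 ± 49.0 and 321 ± 76.5 CPM (log2 ratio -0.18). Rnf26rt, a retrogene of the ubiquitin ligase gene Rnf26, had no count in WT-C3 and 5.64 ± 0.828 CPM in WT-C22. The fold difference of 890 fitted by edgeR is an estimate and no lower bound. Summed with Rnf26 and its other copies, Rnf26rt was 3.57 ± 0.892 and 6.71 ± 1.04 CPM.

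The gene of ribosomal protein Rpl29 fell from 123 ± 8.21 CPM in WT-C3 to 5.03 ± 0.557 CPM in WT-C22 (log2 difference -4.62, SE 0.09, edgeR adjusted p = 3.43e-11), and its pseudogene Gm13841 rose from 0.617 ± 0.380 to 17.3 ± 2.95 CPM (4.90, SE 0.28, edgeR adjusted p = 2.59e-07). Of its 31 near copies 29 were in the table, and the sum over them had a log2 ratio of -1.60. Rpl30 was 153 ± 44.6 and 19.8 ± 2.39 CPM alone (-2.95), Gm12191 2.85 ± 0.682 and 15.6 ± 4.32 CPM, and the sum with all copies was 156 ± 45.0 and 36 ± 6.55 CPM. Rps2 was 424 ± 78.2 and 46.8 ± 8.58 CPM alone (-3.18) and 431 ± 79.0 and 247 ± 65.1 CPM summed. For Ndufs5, a subunit of respiratory complex I, the log2 difference was -3.93 alone and -1.51 summed with its pseudogene. Fragments that aligned to several copies are in none of these sums. Over the 468 called genes with a near copy in the table, the median log2 difference without its sign was 1.00 for the gene alone and 0.59 for the sum, and of 235 that differed at least 2-fold alone 110 (46.8%) did so when summed. The 468 genes were chosen for a difference of the gene alone, and adding the level of any other gene can shrink it. The smaller differences of the sums therefore cannot show whether fragments went to the wrong copy. Ahcy, Rnf26, the ribosomal genes, Ndufs5 and their pseudogenes were named after their values were seen.

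Of 12 genes of the mitochondrial genome tested, 3 (25%, against 21.9% of all tested genes) were called, all lower in WT-C22 and all named after their values were seen. The subunit gene of ATP synthase mt-Atp6 was 11.9, 13.0, 31.5, 20.4 and 11.6 CPM in WT-C3 and 1.98, 6.82, 2.61, 2.93 and 3.24 CPM in WT-C22 (log2 difference -2.39, SE 0.36, edgeR adjusted p = 0.000558). The cytochrome oxidase genes mt-Co2 (35.3 ± 15.0 and 11.8 ± 7.88 CPM) and mt-Co3 (37.5 ± 19.9 and 13.4 ± 7.62 CPM) overlapped between the strains. All 3 were far below mt-Co1, the first subunit of the cytochrome oxidase, which was 8762 ± 986 CPM in WT-C3 and 9811 ± 946 CPM in WT-C22 (0.16, SE 0.12, edgeR adjusted p = 0.380). Fragments aligned to several places were not counted on genes. Their part in the low counts of these 3 genes, and in the strain difference, was not tested.

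Markers of mast cells were higher in WT-C22, with 9 of 10 tested genes called higher, against 10.1% of all tested genes, and none lower, and a median log2 difference of 1.82. Tpsab1 was 0.150, 0.151, 1.1, 0.305 and 0.0587 CPM in WT-C3 and 6.98, 5.81, 18.5, 17.6 and 22.6 CPM in WT-C22 (log2 difference 5.57, SE 0.61, edgeR adjusted p = 4.53e-05). C57BL/6 mice are known to carry a splice variant of this tryptase. Kit, the receptor of stem cell factor on which mast cells depend, was 5.53, 4.76, 7.14, 5.35 and 6.22 CPM in WT-C3 and 7.94, 9.78, 14.4, 14.9 and 17.7 CPM in WT-C22 (1.17, SE 0.21, edgeR adjusted p = 0.00191). Neither gene overlapped between the strains, and in WT-C22 the 3- and 5-week libraries were the lowest for both. Ms4a2, a subunit of the IgE receptor, was 0.477 ± 0.315 and 3.18 ± 1.34 CPM (2.81, SE 0.47, edgeR adjusted p = 0.00116). The summed level of the 10 genes was 43.2, 40.6, 94.2, 60.9 and 46.8 CPM in WT-C3 and 83.3, 107, 226, 228 and 301 CPM in WT-C22, so that the youngest WT-C22 library fell below the highest WT-C3 library. With 1 library left out 8 to 10 genes were called. In bulk tissue more cells of a type and more RNA per cell cannot be told apart.

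Adipocyte genes were higher as well, with 13 of 20 called higher, against 10.1% of all tested genes, and none lower (median log2 difference 1.07). Only 1 of them did not overlap between the strains, where 17.1% of all tested genes did not. It was Cidea, a lipid droplet protein of brown fat, at 1.05, 1.21, 0.769, 0.382 and 0.117 CPM in WT-C3 and 2.76, 7.44, 1.66, 4.25 and 4.01 CPM in WT-C22 (2.50, SE 0.51, edgeR adjusted p = 0.00404). The hormone gene Lep was 26.8 ± 11.3 and 95.4 ± 52.5 CPM (1.85, SE 0.41, edgeR adjusted p = 0.00700), and the fatty acid transporter gene Cd36 246 ± 55.1 and 517 ± 196 CPM (1.07, SE 0.26, edgeR adjusted p = 0.0106). Adipoq, the defining hormone of adipocytes, named after its value was seen, was 178 ± 60.5 and 323 ± 149 CPM and was not called (edgeR adjusted p = 0.0809). The summed level of the list was 4231 to 7870 CPM in WT-C3 and 5687 to 16059 CPM in WT-C22, which overlap. The number called depended on single libraries, with 8 higher when the WT-C3 library aged 5 or 9 weeks or the WT-C22 library aged 9 weeks was left out, and 15 when it was the WT-C3 library of 7 weeks or the WT-C22 library of 3 or 5 weeks.

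Skeletal muscle genes varied more between libraries than between strains, and none of 16 was called. Their summed level was 1006, 4815, 504, 50.8 and 178 CPM in WT-C3 and 134, 12345, 142, 71.0 and 1082 CPM in WT-C22 in order of age, highest in the 5-week library of each strain. Their median log2 difference of 0.89 turned to -2.13 without the WT-C22 library of 5 weeks and to 2.16 without the WT-C3 library of 5 weeks. Without both 5-week libraries 2340 genes were called between the strains, 9 of the mast cell list and 12 of the adipocyte list among them, all higher. The summed level of 6 blood genes was highest in the WT-C3 library of 9 weeks (1649 CPM), and the platelet chemokine gene Pf4 was the 1 member called (-0.87, SE 0.15, edgeR adjusted p = 0.00152).

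**Figure D3:**
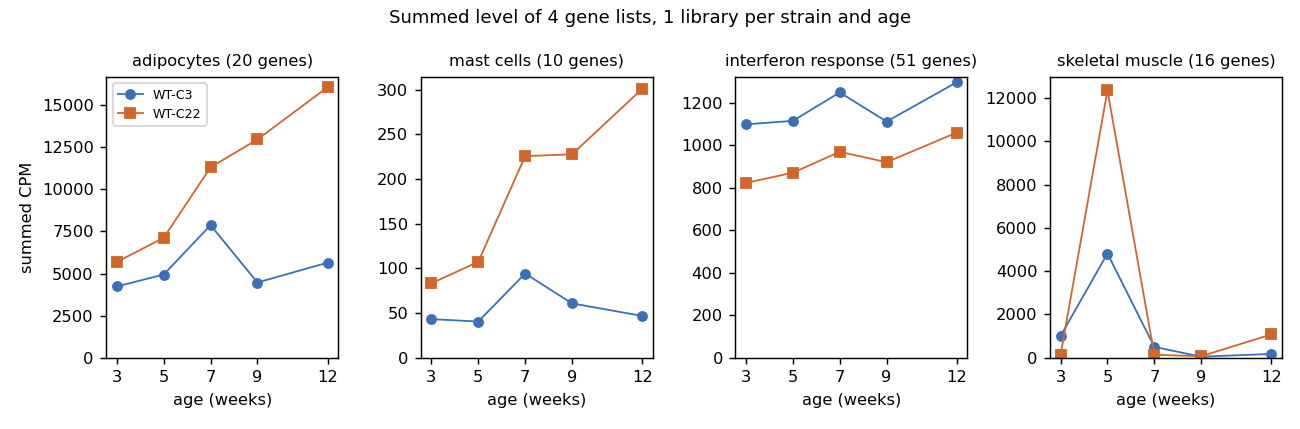
Summed CPM of the tested genes of 4 lists against age in weeks, 1 point per library, WT-C3 as circles and WT-C22 as squares, each axis from 0. WT-C22 is above WT-C3 at each age for adipocytes and mast cells and below it at each age for the interferon response, while skeletal muscle peaks in both 5-week libraries (4815 and 12345 CPM).

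Lists of the other cells of the nerve held calls in both directions, at 28% of the macrophage, 16.7% of the fibroblast, 41.7% of the perineurial and 23.8% of the endothelial and pericyte genes, against 21.9% of all tested genes. Of 25 macrophage genes 4 were higher and 3 lower (median log2 difference 0.03), with the phagocytic receptor gene Mertk at 61.5 ± 10.4 CPM in WT-C3 and 97.5 ± 18.4 CPM in WT-C22 (0.66, SE 0.15, edgeR adjusted p = 0.00752) and the adaptor gene Tyrobp at 8.83 ± 1.44 and 5.23 ± 1.38 CPM (-0.74, SE 0.18, edgeR adjusted p = 0.0132). Without the WT-C3 library of 7 weeks 6 macrophage genes were higher and 2 lower. Only 1 was higher without any other WT-C3 library or the WT-C22 library of 9 or 12 weeks, and 2 without the WT-C22 library of 7 weeks. Among 18 fibroblast genes 2 were higher and 1 lower, led by the cartilage matrix gene Comp (1.62, SE 0.40, edgeR adjusted p = 0.0126). Among 12 perineurial genes 2 were higher and 3 lower, with the calcium-binding gene Casq2 at 60.3 ± 17.2 and 138 ± 24.9 CPM (1.19, SE 0.19, edgeR adjusted p = 0.000863). Among 21 genes of endothelial cells and pericytes 3 were higher and 2 lower. Perineurial genes called numbered 3 when any WT-C3 library older than 5 weeks or any WT-C22 library younger than 12 weeks was left out. Endothelial and pericyte genes numbered 2 without the WT-C22 library of 9 weeks and 3 without that of 3 or 7 weeks or the WT-C3 library of 3, 5, 7 or 12 weeks, and fibroblast genes numbered 6 without the WT-C3 library of 7 weeks and 1 without that of 9 or 12 weeks or the WT-C22 library of 7 weeks. Of 26 lymphocyte genes only Ighm, the heavy chain of immunoglobulin M, passed the filter, at 20.6 ± 2.74 and 33.0 ± 14.2 CPM (edgeR adjusted p = 0.0535), and it was called higher when the WT-C22 library of 3, 5 or 7 weeks was left out.

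Of 17 tested genes of myelin 1 was higher and 1 lower in WT-C22, or 11.8% called against 21.9% of all tested genes. The median log2 difference was -0.14, and 14 of the 17 differences were negative. The counts were 1 and 3 without the WT-C22 library of 3 weeks. Mouse Pmp22 was 22287 ± 4319 CPM in WT-C3 and 21992 ± 7099 CPM in WT-C22 (-0.02, SE 0.23, edgeR adjusted p = 0.964), and Mbp, the myelin basic protein gene, 17617 ± 2859 and 17637 ± 4424 CPM (0.00, SE 0.18, edgeR adjusted p = 0.996). For both genes, named after their values were seen, the ranges overlapped and the level was highest at 3 weeks and lowest at 12 weeks in both strains. The genes called were Cdh1, the E-cadherin of Schwann cell autotypic junctions (247 ± 25.3 and 340 ± 53.0 CPM; 0.46, SE 0.11, edgeR adjusted p = 0.0137), and Fxyd3, a regulator of the sodium pump (53.2 ± 7.63 and 36.9 ± 3.89 CPM; -0.53, SE 0.11, edgeR adjusted p = 0.00372).

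Of 16 transcription factors of Schwann cells none was higher and 2 were lower (where 21.9% of all tested genes were called), Nr2f1 at 51.3 ± 10.6 and 30.3 ± 7.46 CPM (-0.76, SE 0.17, edgeR adjusted p = 0.00735) and Id4 (-0.51, SE 0.14, edgeR adjusted p = 0.0222), whose call was lost in 3 of the 10 fits that left out 1 library (adjusted p at most 0.0524, without WT-C22 of 7 weeks). Sox10, which specifies the Schwann cell lineage, was 393 ± 22.9 and 393 ± 45.8 CPM (log2 difference 0.00, SE 0.09), and Egr2, the driver of myelination, 150 ± 10.2 and 156 ± 24.2 CPM (0.05, SE 0.10). Both were named after their values were seen. Among 12 genes of Remak and repair Schwann cells 3 were higher and 2 lower (41.7% called). Gfap, the intermediate filament of non-myelinating Schwann cells, was 3.07, 3.55, 3.62, 5.73 and 5.63 CPM in WT-C3 and 16.4, 14.3, 13.2, 10.7 and 10.4 CPM in WT-C22 (1.57, SE 0.20, edgeR adjusted p = 0.000156). All WT-C22 libraries were above all WT-C3 libraries, and the gap was widest at 3 weeks. Cdh2, N-cadherin, was 99.6 ± 8.81 and 65.0 ± 6.90 CPM (-0.62, SE 0.09, edgeR adjusted p = 0.000397).

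The lists of the node and paranode (13.3% called), cholesterol synthesis (11.1%) and fatty acid synthesis (11.8%) had smaller shares of calls than all tested genes (21.9%), a difference that was not tested. Among 15 genes of the node and paranode none was higher and 2 were lower, Cntn1, the axonal contactin of the paranodal junction, at 11.4 ± 1.90 and 5.84 ± 0.673 CPM (-0.98, SE 0.14, edgeR adjusted p = 0.000272), and the potassium channel gene Kcna1 (-0.58, edgeR adjusted p = 0.0454). The call of Kcna1 was lost in 7 of the 10 fits that left out 1 library, with an adjusted p of at most 0.0943, without WT-C22 of 7 weeks. Among 18 genes of cholesterol synthesis none was higher and 2 were lower, Hsd17b7 at 151 ± 28.1 and 70.6 ± 22.8 CPM (-1.10, SE 0.20, edgeR adjusted p = 0.00225) and Sc5d (-0.48, edgeR adjusted p = 0.0375). The call of Sc5d was lost in 7 of these 10 fits, with an adjusted p of at most 0.0937, without WT-C22 of 9 weeks. Among 17 genes of fatty acid synthesis 2 were higher and none lower. The desaturase gene Scd1 was 2992, 2284, 3721, 2091 and 1753 CPM in WT-C3 and 2629, 3603, 4152, 5933 and 13610 CPM in WT-C22 (1.22, SE 0.40, edgeR adjusted p = 0.0478), and the carboxylase gene Acacb had a log2 difference of 1.07 (SE 0.34, edgeR adjusted p = 0.0422). Both calls were lost in 7 of these 10 fits, with an adjusted p of at most 0.105 for Scd1 and 0.0960 for Acacb, without WT-C3 of 12 weeks.

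Genes of the circadian clock differed in both arms of the loop, with 6 of 20 higher and 2 lower, or 40% called against 21.9% of all tested genes (median log2 difference 0.33). The activator Bmal1 was 23.6, 5.06, 8.35, 15.8 and 10.4 CPM in WT-C3 and 3.34, 2.55, 2.85, 3.42 and 4.4 CPM in WT-C22 (-1.91, SE 0.35, edgeR adjusted p = 0.00202). Of the repressors, Per2 was 13.5, 29.9, 35.5, 21.7 and 24.2 CPM in WT-C3 and 38.5, 48.1, 89.3, 65.9 and 47.1 CPM in WT-C22 (1.22, SE 0.27, edgeR adjusted p = 0.00617), and Cry2 was 69.4 ± 9.23 and 111 ± 15.0 CPM (0.67, SE 0.12, edgeR adjusted p = 0.00131). None of the 3 overlapped between the strains. Without the WT-C22 library of 7 weeks 3 clock genes were higher and 1 lower. Levels of these genes follow the time of day, and the hour of dissection is not given in the sources used here, so that it and the strain cannot be told apart.

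Among 33 genes of mitochondrial NADPH and redox 3 were higher and 3 lower, or 18.2% called against 21.9% of all tested genes (median log2 difference 0.01). Without the WT-C22 library of 12 weeks, which stands apart for the sum of this list, 5 were lower. Hmox1, which degrades heme, was 51.1 ± 4.51 CPM in WT-C3 and 96.3 ± 1.13 CPM in WT-C22 (0.91, SE 0.07, edgeR adjusted p = 2.22e-06), and the mitochondrial glutaredoxin gene Glrx2 was 32.3 ± 2.09 and 18.7 ± 3.18 CPM (-0.79, SE 0.11, edgeR adjusted p = 0.000210). Among 41 genes of glutathione transferases and detoxification 8 were higher and 3 lower (26.8% called, median 0.21), and 13 higher without the WT-C22 library of 3 weeks. Without both 5-week libraries 5 were higher and 2 lower. They were led by Gsta4, which detoxifies 4-hydroxynonenal, at 31.4 ± 7.85 and 83.5 ± 14.3 CPM (1.41, SE 0.17, edgeR adjusted p = 9.47e-05). Of 31 collagen genes 3 were higher and 6 lower (29% called, median -0.05), but 6 higher and 5 lower without the WT-C3 library of 3 weeks (median 0.21). Among them were Col6a5 at 126 ± 20.9 and 38.1 ± 6.93 CPM (-1.72, SE 0.15, edgeR adjusted p = 5.73e-06) and Col16a1 at 169 ± 31.4 and 346 ± 69.2 CPM (1.03, SE 0.16, edgeR adjusted p = 0.000521). Of 22 complement genes 1 was higher and 1 lower (9.09% called). The protease gene C1s2 (2.91) is a near copy of the far more abundant C1s1, and their sum differed by a log2 ratio of -0.22, while C2, which lies in the MHC, was 9.67 ± 3.02 and 4.13 ± 0.695 CPM (-1.23, SE 0.20, edgeR adjusted p = 0.000996). Of 22 immediate early genes (9.09% called) Junb was higher, a call lost in 6 of the 10 fits that left out 1 library (edgeR adjusted p at most 0.0932, without WT-C3 of 5 weeks), and 1 was lower, Atf3, a factor of the stress response, at 28.7 ± 3.95 and 13.2 ± 1.81 CPM (-1.12, SE 0.12, edgeR adjusted p = 3.50e-05). Of 20 proliferation genes 1 (5%) was called, and 2 when the WT-C3 library aged 7 or 9 weeks was left out. It was Mcm6, a subunit of the replicative helicase, at 14.6 ± 0.975 and 4.87 ± 0.316 CPM (-1.58, SE 0.09, edgeR adjusted p = 3.58e-07).

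**Figure D4:**
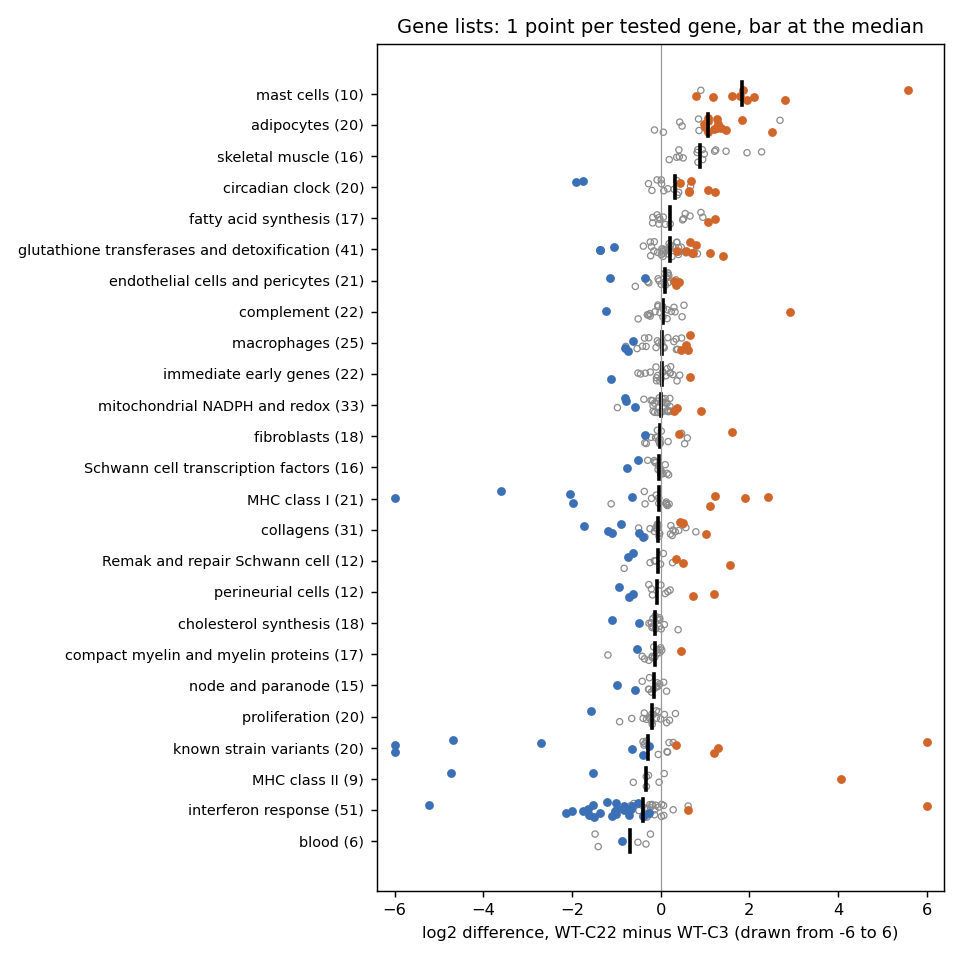
Log2 difference of WT-C22 minus WT-C3 for each tested gene of 25 lists (number of genes in brackets), filled in orange where called higher and in blue where called lower in WT-C22 (edgeR adjusted p under 0.05), open where not called, drawn at 6 or -6 where beyond, with a bar at the median of the list. Mast cells (median 1.82) and adipocytes (1.07) lie highest, and the interferon response (-0.39) holds the most genes called lower.

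The same strains were compared in libraries that the wild-type comparison did not use, 5 of C22 and 5 of C3 mice, where the copy number of human PMP22 differs between the lines as well and cannot be told apart from strain. There 3763 genes (27.8%) were called, 1706 higher and 2057 lower in C22 (45.3% higher), and with library size alone as scaling 4326 were called, 61.3% of them higher. The C3 library of 9 weeks had only 2140142 fragments counted on genes, against 23010045 to 49072746 in the other C3 libraries. Without it 4169 genes were called. Called in both comparisons were 1493 genes, which is 50.4% of the genes called between the wild types and 39.7% of those called between the models, and 1376 (92.2%) of the 1493 had the same direction in both. Of the 822 genes that differed at least 2-fold between the wild types, 577 (70.2%) were called in the same direction between the models, and of the 136 that differed at least 8-fold 130 were.

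Named genes that held this difference include Ifi202b with a log2 difference of 10.71 between C22 and C3, Pianp with 4.90, Hal with 5.97, Trim12a with -9.17, Them5 with -6.16, H2-Q10 with -6.66 and H2-Eb1 with -4.47. Mast cell Kit (1.81), interferon-induced Ifit1 (-1.66) and clock gene Bmal1 (-1.41) also kept their direction and were called (edgeR adjusted p = 1.47e-05, 0.000296 and 0.0370). Bc1, a non-coding RNA of neurons that represses translation, was an exception among the largest differences. It was 33.6, 11.3, 14.5, 21.8 and 31.1 CPM in WT-C3 and 0.184, 0.713, 0.356, 0.263 and 0.336 CPM in WT-C22 (log2 difference -6.08, SE 0.40, edgeR adjusted p = 6.17e-07), and between C22 and C3 it differed by -0.60 (SE 1.62, edgeR adjusted p = 0.827). Lrrc17 met the rule for a near copy of Bc1 by a match over only 51.7% of the Bc1 transcript. Lrrc17 was 14.6 CPM in WT-C3 and 15.5 CPM in WT-C22. Gfap was higher in WT-C22 than in WT-C3 and lower in C22 than in C3 (-1.28, edgeR adjusted p = 0.00102). Whether the strain difference of Bc1 or Gfap itself differed between wild types and models was not tested.

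**Figure D5:**
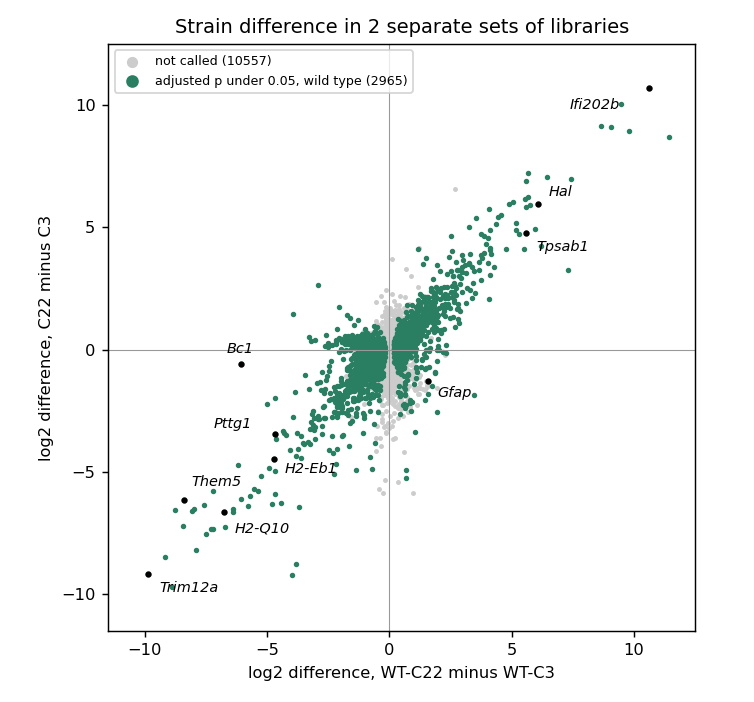
Log2 difference of C22 minus C3 (vertical) against that of WT-C22 minus WT-C3 (horizontal) for 13522 genes, green where called between the wild types (2965) and grey where not (10557). Most genes with a large difference lie near the diagonal, Ifi202b, Trim12a and Them5 at its ends, while Bc1 and Gfap lie away from it.

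Whether the strain difference moved with age was asked by the difference in slope between 3 and 12 weeks. No gene passed (0%) in edgeR, with 1506 (11.1%) at an unadjusted p under 0.05, while DESeq2 called 126 and edgeR without the WT-C3 library of 7 weeks 21. The 4 genes with the smallest p all had an adjusted p of 0.198 in edgeR. The transmembrane gene Tmem45b was 22.8, 26.1, 42.6, 30.9 and 37.0 CPM in WT-C3 and 17.4, 27.1, 49.6, 79.8 and 149 CPM in WT-C22, a slope 0.28 per week higher in WT-C22 on the log2 scale (SE 0.039). Wt1, a transcription factor of mesothelium and kidney, was 5.16, 7.25, 5.93, 11.5 and 13.8 CPM in WT-C3 and 34.2, 35.0, 34, 30.1 and 25.6 CPM in WT-C22, and the strains did not overlap (slope difference -0.21, SE 0.035). The slope differences of Scd1 and of the smooth muscle actin gene Acta2 were 0.33 (SE 0.053) and 0.23 (SE 0.040).

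Since the reads of both strains were aligned to the C57BL/6J genome, the fragments that were left uncounted were compared. On no gene lay 9.88 ± 0.891% of fragments in WT-C3 and 9.25 ± 0.773% in WT-C22 (exact permutation test, two-sided, p = 0.254). Aligned to several places were 3.31 ± 0.307% and 3.61 ± 0.264% (exact permutation test, two-sided, p = 0.135), and without the WT-C3 library of 9 weeks the difference grew from 0.308 to 0.426 percentage points (p = 0.0476). On more than 1 gene lay 1.80 ± 0.0134% and 1.89 ± 0.0710% (exact permutation test, two-sided, p = 0.0317). The smallest p these groups allow is 0.00794.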

How the data were processed

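RNA of whole sciatic nerve was sequenced by the authors as stranded poly(A) libraries with molecular identifiers, each from a pool of animals. Per the labels and the paper, reads were checked with FastQC 0.11.9, trimmed with cutadapt 2.10, aligned with STAR 2.7.5a to GRCm39 with the human PMP22 locus added, deduplicated with UMI-tools 1.1.1 and counted on Ensembl 110 genes with HTSeq 0.12.4. The authors deposited raw counts for 56956 genes, 15 of them human, and 5 summary lines, which stayed out of library sizes and tests and gave the shares of uncounted fragments. Fragments aligned to several places were not counted on genes.

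Groups were taken from the genotype in the labels. Symbols were matched for 56323 of 56941 mouse genes. The filter kept the 13993 genes that reached a log2 CPM over 1 in 7 or more of the 25 libraries, of which 447 on X and Y and 24 without a position stayed in the fit and were left out of all counts. WT-C22 was tested against WT-C3, and C22 against C3, with the quasi-likelihood test of edgeR 4.0.16 in R 4.3.3, with TMM factors among the libraries compared, group as the only term and Benjamini-Hochberg adjustment over all genes kept (threshold 0.05). SE is the log2 difference, or the difference in slope, without its sign and divided by the square root of the F statistic of the test. For genes with few counts in 1 strain it can be too small. The difference in age slope was tested as the interaction of strain and age. Shares of fragments were compared with exact permutation tests. Ratios of counts have exact 95% intervals, which cover counting error only. Fold differences of genes without a count in 1 strain are those fitted by edgeR. Near copies were found with blastn 2.17.0+. Sequences were read from the GRCm39 transcripts of GENCODE vM39, whose coordinates are given. The steps were tested on simulated data.

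Named genes were the 12 largest differences in each direction among genes called, with a mean of at least 5 CPM in the higher group, the same direction at 5 of 5 ages and a symbol that is not a predicted model, the tested known strain variants and Nnt, up to 4 members with the smallest p of each list, and the 4 smallest p of the age slope. The comparison, its genes and the lists were chosen with earlier results of these data known. The lists were written from general knowledge. As alternatives DESeq2 1.42.0, scaling by median ratios or by library size only, filterByExpr, no filter, 1 fit of all libraries, a block for age, log2 of age, a threshold of 0.01, other denominators and leaving out each library were tried. Leaving out both 5-week libraries and thinning counts to the smallest library were added after seeing the data.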

Additional observations from a re-analysis of the deposited data

Results flagged for a closer look

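In groups of 5 libraries, a library was set apart when its gap to the nearest other library exceeded 0.710 of the group's range (Dixon's test). This held for 26 of 324 sets of values checked, and chance would give about 1 in 20, or 16.2.

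The 5-week libraries stood apart for skeletal muscle, with a summed level of 4815 CPM in WT-C3 and 12345 CPM in WT-C22 against 1006 and 1082 CPM in the next libraries. The WT-C22 library of 5 weeks was also apart for 6 blood genes (629 CPM summed), for Hbb-bs (173 CPM) and Hbb-bt (20.6 CPM), which encode beta globin, and for Ighm, the 1 tested lymphocyte gene (57.8 CPM). It held 0.102 CPM of Trim30d. The part of muscle transcripts in other differences was addressed only by fits without 5-week libraries, and without both 2340 genes were called. Those fits do not address blood transcripts, which were highest in the WT-C3 library of 9 weeks (1649 CPM summed). Without that library alone 2537 genes were called.

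The WT-C22 library of 12 weeks was apart for fatty acid synthesis (31835 CPM summed against 15248 CPM in the next), for mitochondrial NADPH and redox (4106 CPM summed), for Gys2 (30.6 CPM) and for Txn1, thioredoxin (43.0 CPM). Counts of 1 or a few fragments set apart Trim12a (0.0791 CPM) and Trim5 (0.0395 CPM) in the WT-C22 library of 7 weeks and Fam169a (0.150 CPM) in that of 9 weeks.

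In WT-C3 the 7-week library was apart for H2-Q10 (31.0 CPM), Trim30d (11.1 CPM), Tpsab1 (1.1 CPM), the complement gene C1ra (107 CPM) and the transcription factor gene Klf2 (40.1 CPM). The 12-week library was apart for Id4 (42.6 CPM), Ifit3 (63.8 CPM) and C2 (15.0 CPM), the 3-week library for Cry2 (53.2 CPM) and Serpina1b (0.299 CPM), and the 9-week library for Kcna1 (142 CPM).

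The strain difference had the opposite sign between the wild types and between C22 and C3, at each of the 5 ages in both, for 3 of 133 named genes. These are Gfap (log2 difference 1.57 and -1.28), the collagen gene Col12a1 (0.50 and -0.80) and Ahr, the aryl hydrocarbon receptor gene (0.14 and -0.49). The differences between these pairs were not tested.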

How the results depend on the processing

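The number of genes called between WT-C22 and WT-C3 (2965) was 1686 at an adjusted p under 0.01, and otherwise lay between 2249, with counts thinned to the smallest library, and 3733, with no filter on low counts. With 1 library left out it was 2257 to 2952, the lowest without the WT-C22 library of 9 weeks. Between C22 and C3 (3763) it was 2311 at an adjusted p under 0.01 and otherwise 3006 to 4491. For the age slope (0) DESeq2 called 126, and leaving out 1 library gave 0 to 21, the 21 without the WT-C3 library of 7 weeks. The difference in the share of fragments aligned to several places (0.308 percentage points) was 0.228 to 0.426 with 1 library left out. The cause of these shifts was not tested, apart from the stricter threshold and the smaller number of libraries or counts.

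Libraries of the same age were not treated as pairs. Between the wild types the correlation of their deviations from the group means ran from 0.0606 to 0.668. Between the models it ran from -0.0785 to 0.330. Of 10 libraries, 6 and 3 resembled their own age best. Wild-type libraries of an age thus shared part of their deviation, which the main test left in the spread. With age as a replicate block 3633 and 3776 genes were called, against 2965 and 3763 without it.

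Of 145 results on single genes, 93 kept their direction and their side of the threshold under every alternative. Over all 2880 values, 155 (26 genes) were no longer past the threshold, 48 (24 results) newly past it and 4 (Naip2 and Ly6c1) reversed. Naip2 was -0.10 with thinned counts, and Ly6c1 was 0.022 without both 5-week libraries and -0.15 to 0.020 with 1 library left out. Neither was called. Depth limits genes at a few counts per library, such as Nnt, and 1 library per strain and age leaves the effect of age without a replicate.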
